A study of Mus musculus with 4 samples.

Results

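Of the 33820 CTCF peaks in the deposited joint list (mm10), 8595 had another CTCF summit within 5 kb on the same chromosome. They were found by taking the summit of each peak on chromosomes 1 to 19, sorting the summits, and keeping every peak whose nearest neighbouring summit was at most 5000 bp away. These close peaks made up 25.99% of the 33075 peaks on chromosomes 1 to 19 (exact Clopper-Pearson 95% interval 25.5 to 26.5). The other 24480 peaks on those chromosomes, whose nearest summit was farther off, served for comparison, and 1016 of them stood over 150 kb from any other summit. The members were thus chosen by measured summit positions, so spacing is given as a description. Strength, width, place in genes and promoter sequence were not part of the rule. Width is still linked to spacing by construction, because joint peaks in the list do not overlap.

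CTCF was immunoprecipitated from primary cortical neurons of wild-type Swiss-Webster mice, and the DNA was sequenced (ChIP-seq), in a study of the topoisomerase TOP2B. The neurons were taken from cortex at embryonic day 16, were collected after 13 days in culture and carried no treatment. The 2 immunoprecipitations are labelled as biological replicates, and the 2 input libraries have no column in the peak list. With 1 condition, every comparison is between classes of peaks, described without a test, and intervals cover counting error only. A culture of dissociated cortex holds several neuron types and some glia, so a peak can come from only some of the cells, and summits a few kb apart need not be bound in the same cell. Read depth per library is unknown from the list.

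CTCF uses zinc fingers to bind a long, directional DNA motif. It stops the cohesin ring as cohesin draws DNA into loops, and so marks many loop anchors and the borders of chromatin domains. Groups of sites that lie close together are known at domain borders, imprinted genes, Hox clusters and clustered protocadherins, and many other CTCF sites lie at promoters.

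The letters of CTCF binding sites could be read at gene starts, in RefSeq promoter windows of 300 bases (build GRCm38.p6, from 250 bases before a start to 50 after it). The most conserved letters of the motif were searched on both strands as CCA, any 2 bases, AG, any 2 bases and GGC. They occurred in 2.47% of all 31365 windows and in 1.82% of the 29424 windows with no summit. Among the 1487 windows with a summit that was not close 11.6% held them (exact 95% interval 10.0 to 13.4), and among the 454 windows with a close summit 67 did (14.8%, 11.6 to 18.4). The last pair of intervals overlap. The 69 matches in windows with a close summit had a median distance of 19 bp from it, 58 of them (84.1%) within 50 bp, with 43 on the gene's own strand and 26 on the opposite strand. The 60 close peaks whose window held the letters had a median strength of 428.8, and the 355 whose window did not had 250.6. Strength here is the sum over both replicates of the −log10 p that the authors' peak calling gave.

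Windows from a neurotrophin gene (Bdnf), an imprinted signal peptide peptidase gene (H13), a ribosomal stalk protein gene (Rplp0) and a synaptic scaffold gene (Homer3) are shown because the letters, in capitals, lie 2 to 26 bp from a close summit. They are on the opposite strand at Bdnf and on the gene's strand at the other 3. Each is written 5′ to 3′ on the plus strand, and the coordinates are chr2:109692186-109692485 for Bdnf, chr2:152669211-152669510 for H13, chr5:115559217-115559516 for Rplp0 and chr8:70282749-70283048 for Homer3.
Bdnf: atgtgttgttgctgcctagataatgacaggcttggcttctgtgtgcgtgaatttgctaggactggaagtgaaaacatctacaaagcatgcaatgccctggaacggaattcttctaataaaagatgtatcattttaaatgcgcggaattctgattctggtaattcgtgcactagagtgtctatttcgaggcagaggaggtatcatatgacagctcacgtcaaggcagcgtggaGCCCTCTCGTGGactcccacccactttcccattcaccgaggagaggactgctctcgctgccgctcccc
H13: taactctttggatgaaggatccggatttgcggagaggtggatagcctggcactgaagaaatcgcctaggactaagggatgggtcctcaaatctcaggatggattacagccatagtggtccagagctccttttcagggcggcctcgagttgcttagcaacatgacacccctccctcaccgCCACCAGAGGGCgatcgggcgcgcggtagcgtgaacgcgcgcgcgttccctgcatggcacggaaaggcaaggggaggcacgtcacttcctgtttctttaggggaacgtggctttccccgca
Rplp0: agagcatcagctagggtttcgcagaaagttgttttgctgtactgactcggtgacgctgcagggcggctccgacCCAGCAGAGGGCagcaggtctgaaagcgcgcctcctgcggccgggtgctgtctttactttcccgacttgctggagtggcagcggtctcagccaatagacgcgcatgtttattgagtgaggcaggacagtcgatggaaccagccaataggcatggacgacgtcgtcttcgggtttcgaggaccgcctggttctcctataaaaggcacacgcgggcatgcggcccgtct
Homer3: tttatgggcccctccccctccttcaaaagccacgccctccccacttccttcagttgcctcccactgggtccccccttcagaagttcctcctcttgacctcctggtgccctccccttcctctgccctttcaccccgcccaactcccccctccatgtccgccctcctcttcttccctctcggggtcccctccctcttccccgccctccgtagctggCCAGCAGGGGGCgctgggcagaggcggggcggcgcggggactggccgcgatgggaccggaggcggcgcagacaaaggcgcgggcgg
The close peak at Bdnf was weak, with 21.6 in the first column of replicate values and 22.6 in the second. At H13 the columns had 348 and 338, at Homer3 464 and 470.3, and at Rplp0 675 and 862. The letters were thus found under weak and strong peaks among these 4.

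The pair of peaks whose weaker member was the strongest of all pairs stood at divergent gene starts on chromosome 9. Its promoter windows, shown because they hold both summits of that pair, are those of Ube2cbp, which encodes a binding partner of ubiquitin-conjugating enzymes (chr9:86464867-86465166, minus strand), and of Dop1a, which acts in membrane traffic (chr9:86466904-86467203, plus strand). Each is written 5′ to 3′ on its gene's strand with no capitals, since neither window held the letters searched.
Ube2cbp: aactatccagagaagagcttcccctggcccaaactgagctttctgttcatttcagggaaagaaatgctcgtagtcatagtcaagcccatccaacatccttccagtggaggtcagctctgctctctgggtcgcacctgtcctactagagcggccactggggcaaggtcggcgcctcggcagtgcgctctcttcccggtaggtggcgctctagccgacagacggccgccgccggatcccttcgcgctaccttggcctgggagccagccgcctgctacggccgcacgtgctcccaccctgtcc
Dop1a: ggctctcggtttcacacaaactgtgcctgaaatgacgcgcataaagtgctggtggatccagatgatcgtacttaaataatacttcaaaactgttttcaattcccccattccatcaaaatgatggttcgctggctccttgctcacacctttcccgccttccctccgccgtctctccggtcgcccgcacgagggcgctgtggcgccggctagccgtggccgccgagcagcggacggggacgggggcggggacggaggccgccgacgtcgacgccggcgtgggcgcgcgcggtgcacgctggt
The summits stood 2125 bp apart, with 852 and 848 in the replicate columns at Ube2cbp and 748 and 805 at Dop1a.

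Most close peaks came in pairs. The 8595 peaks formed 3876 runs, in which each summit was within 5 kb of the next. Of these, 3196 were pairs and held 6392 peaks (74.4%). The remaining 680 runs were clusters of at least 3 peaks and held 2203 (25.6%), with 551 clusters of 3, 103 of 4, 20 of 5, 5 of 6 and 1 of 8. Pairs spanned a median of 2908 bp between summits, from 532 to 4998 bp, and clusters a median of 6485.5 bp, up to 19644 bp.

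Neighbouring summits were most often 2000 to 2500 bp apart, with 684 pairs of neighbours in that bin. Only 87 of the 4719 neighbouring pairs within 5 kb stood under 1000 bp apart, and 0 stood under 500 bp. Joint peaks in the list do not overlap, and close peaks had a median width of 1181 bp, which leaves little room for shorter spacings. The low counts there and the most frequent spacing are thus a description of the list, not of a preferred spacing of CTCF sites. Around the 5 kb limit the count per bin was 529 at 4500 to 5000 bp and 482 at 5000 to 5500 bp. The limit thus divided a continuous range of spacings.

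**Figure D1:**
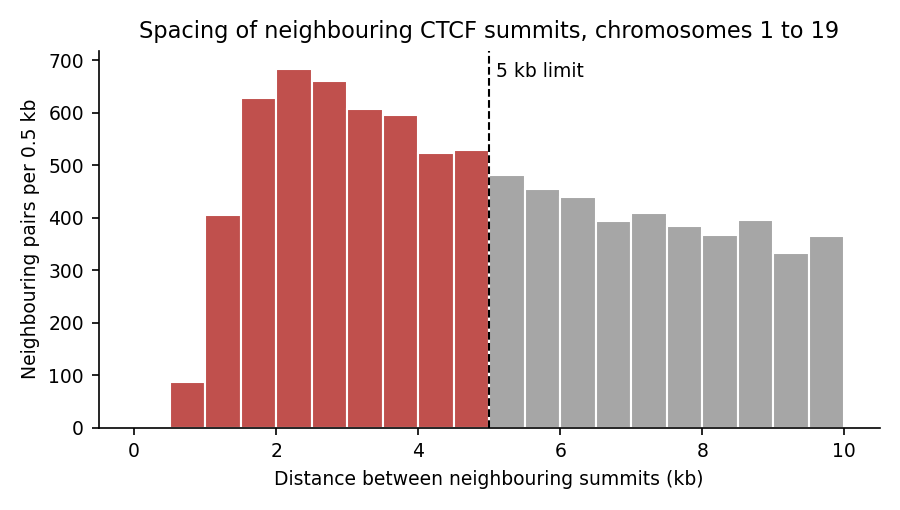
Number of neighbouring summit pairs on chromosomes 1 to 19 per 0.5 kb of distance, up to 10 kb. Red bars are within the 5 kb limit (dashed line) and grey bars beyond it, and the highest bar holds 684 pairs at 2000 to 2500 bp.

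In the list, the close summits were separate peaks in both replicates. No joint peaks overlapped, 1 neighbouring pair touched, and 977 (20.7%) had under 500 bp between their edges, with a median gap of 1553 bp over all 4719. In 0 pairs did a single replicate peak serve both joint peaks. Each row of the list joins 1 peak of each replicate. The lack of overlaps and of shared replicate peaks may thus follow from how the list was made, and is given as a description. By the summits of the first replicate column alone 4647 of the 4719 pairs (98.5%) were still within 5 kb, and by those of the second 4674 (99.0%). Replicate summits were a median of 30 bp apart at close peaks and 29 bp at others, and over 500 bp apart at 7.99% and 6.54%.

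Close and other peaks had nearly the same median strength, 170.2 and 167, and the columns went in opposite directions. The medians were 34.96 and 30.7 in the first column and 129 and 131 in the second, so the sign of the joint difference (3.18) rests on the first column. The log2 ratio of the second over the first column had a median of 1.76 at close peaks and 1.95 at others, a difference of −0.19. The close peaks' strengths were more spread, with quartiles of 78.5 and 339 against 81.5 and 309. Of all peaks 10% passed a strength of 504.7, of close peaks 11.5% and of other peaks 9.48%. The highest reproducibility value of the list, a −log10 of 5 for the irreproducible discovery rate (IDR), was reached by 25.2% of all peaks, 28.4% of close peaks and 24.1% of the others. Close peaks had a median width of 1181 bp and other peaks 1113 bp, and they were the wider in both columns, by 101 bp in the first and 54 bp in the second. With a limit of 2000 bp in place of 5000 bp both differences changed sign, to −36.5 in strength and −27 bp in width. Against other peaks within 50 kb the strength difference was −2.91. A shorter limit leaves less room for wide peaks, since joint peaks do not overlap, so the width differences are not independent of the rule.

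Within the close peaks, strength differed with spacing. The 174 peaks whose nearest summit was within 1 kb had the lowest median strength of all spacing classes, 74.0, with 27.6 in the first column and 53.4 in the second. Their median width was 831.5 bp, and summits this close leave little room for wider joint peaks. At 1 to 2 kb the column medians were 30.3 and 106, and at 3 to 4 kb 36.6 and 144. They were 35.1 and 143 at 5 to 10 kb and 19.6 and 117 over 150 kb, so intermediate spacings had the strongest peaks in both columns. The first column was the higher in 26.4% of peaks within 1 kb of another, against 8.96% at 4 to 5 kb. Peaks just inside the limit, at 4900 to 5000 bp, had a median strength of 155.6 (178 peaks), and those just outside, at 5001 to 5100 bp, 186.6 (146 peaks).

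**Figure D2:**
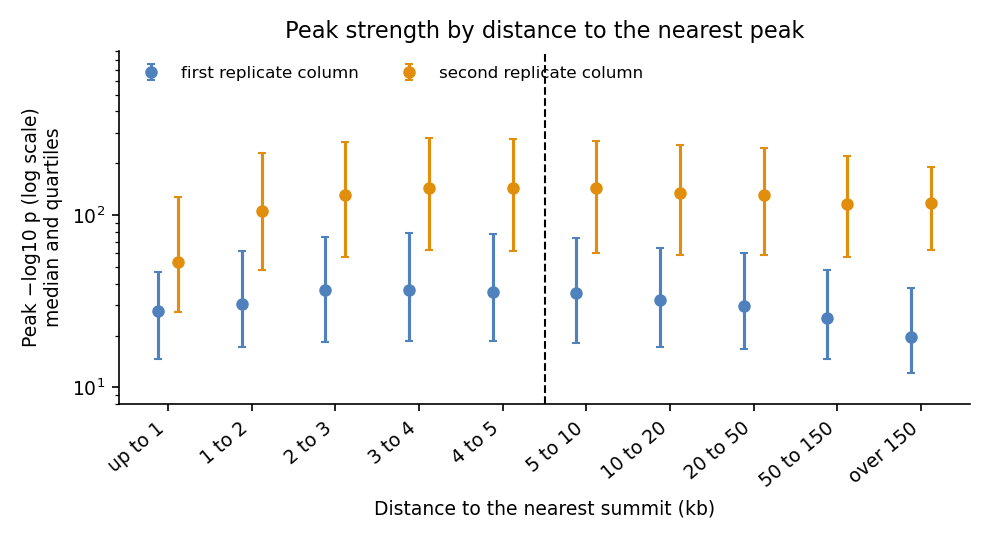
Median (point) and quartiles (bars) of the peak −log10 p on a log axis, by distance to the nearest summit in kb, for the first (blue) and second (orange) replicate column; the dashed line is the 5 kb limit. The medians are 27.6 and 53.4 within 1 kb, 36.6 and 144 at 3 to 4 kb, and 19.6 and 117 beyond 150 kb.

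By class of place, close peaks were distributed almost as all peaks were. Summits within 1 kb of either end of a protein-coding gene numbered 1628 (18.9%, exact 95% interval 18.1 to 19.8), where all peaks had 18.1% and the other peaks 17.8%. Deeper inside protein-coding genes were 3791 (44.1%, against 43.7% of all peaks). At other genes, mostly non-coding, were 743 (8.64%, against 8.52%), and in intergenic sequence 2433 (28.3%, against 29.7%). Peaks over 150 kb from the next stood apart, with 10.5% at gene ends and 52.2% intergenic. Peaks within 1 kb of another stood apart in the other direction, with 46.0% at gene ends.

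Close and other peaks differed in the flanks of gene ends. Within 0.5 kb of an end were 12.2% of close peaks and 12.5% of others. At 1 to 2.5 kb the shares were 13.8% (exact 95% interval 13.1 to 14.6) and 8.05%, and at 2.5 to 5 kb 15.96% (15.2 to 16.8) and 8.40%. Beyond 50 kb they were 10.4% (9.78 to 11.1) and 21.3%. In all, 48.7% of close peaks were within 5 kb of an end, against 34.3% of other peaks and 38% of all, and the median distance was 5296 bp against 11690 bp. Among peaks with their nearest summit 5 to 10 kb away, 19.4% were 5 to 10 kb from an end and 11.7% at 2.5 to 5 kb. A neighbour of a summit at a gene end is by the rule within a few kb of that end. Of the 6967 close peaks away from ends, 1554 (22.3%) shared a run with a peak at one.

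**Figure D3:**
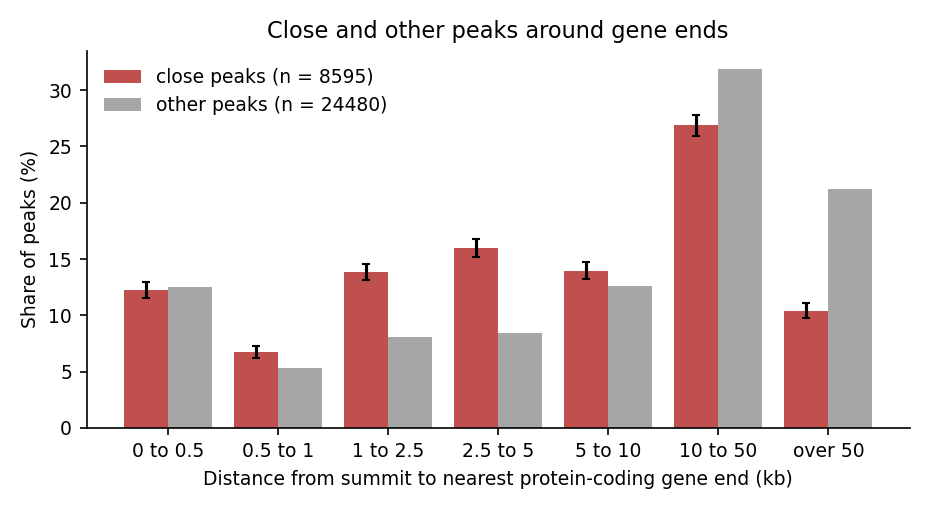
Share of close peaks (red, with exact 95% intervals) and other peaks (grey) by the distance in kb from the summit to the nearest end of a protein-coding gene. The bars are level within 0.5 kb (12.2% and 12.5%), differ at 2.5 to 5 kb (15.96% and 8.40%) and stand the other way round beyond 50 kb (10.4% and 21.3%).

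Starts and finishes of genes were separated with strands from the promoter table (16457 genes, chromosome 18 left out). Within 1 kb of a start were 970 of 8375 close peaks (11.6%) and 12.4% of other peaks. Within 1 kb of a finish were 363 (4.33%) and 2.96%. From 1 to 5 kb the shares were 18.5% and 8.15% around starts, and 15.0% and 10.7% around finishes. Close peaks thus had a slightly lower share at starts themselves and higher shares in the flanks of starts and at finishes. By the rule, neighbours of summits at gene ends fall in such flanks, and their part in these shares was not tested.

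The most frequent place of neighbouring close summits was inside 1 gene. Shares of pairs by place were not computed for neighbours farther apart, and 43.7% of all peaks lay inside protein-coding genes. The shares are thus a description and not a trait of close pairs. Of the 4719 neighbouring pairs 1561 (33.1%) had both summits inside the same protein-coding gene and 1409 (29.9%) both outside such genes. In 732 (15.5%) a summit at a gene end had its neighbour inside that gene, and in 555 (11.8%) outside protein-coding genes. In 84 pairs both were at the same end, in 81 at ends of different genes, and in 51 at opposite ends of a short gene. A gene end fell between the summits in 1093 (23.2%). The stretches between close summits held 91.5 gene ends per Mb, those between neighbours 5 to 10 kb apart 67.6, and chromosomes 1 to 19 as a whole 17.1.

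When 1 peak of a pair sat at a gene end and its partner did not, the replicate columns ranked them differently. Such pairs numbered 914. By the first column the end peak was the stronger in 598 (65.4%, exact 95% interval 62.2 to 68.5), with medians of 48.5 at the end and 31.8 at the partner. By the second it was the stronger in 386 (42.2%, 39.0 to 45.5), with medians of 96.7 and 134.9. No direction can be given for both columns. Among all close peaks, those at gene ends had medians of 47.9 and 94.8 in the columns and intergenic ones 30.7 and 158.

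Peaks of a pair were usually unequal, and so were neighbours farther apart. The median ratio between the stronger and the weaker peak of a pair was 1.20 on the log2 scale in the joint value, 1.22 in the first column and 1.30 in the second. Among neighbours over 5 kb apart the ratios were 1.20, 1.24 and 1.28. In 2362 of 3196 pairs (73.9%, exact 95% interval 72.3 to 75.4) the same peak was the stronger in both columns, beside 73.2% of neighbours over 5 kb apart. A ratio of at least 4 times in −log10 p was found in 887 pairs (27.8%, beside 26.9% of neighbours over 5 kb apart). Both shares were near those of the more distant neighbours. Across pairs, which share the 2 libraries and are not replicates, the log2 strengths of both peaks had a Pearson correlation of 0.02 (n = 3196), and those of neighbours farther apart 0.01 (n = 28337). In clusters of 3 the middle peak was the strongest in 179 of 551 (32.5%, 28.6 to 36.6) and the weakest in 188 (34.1%).

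**Figure D4:**
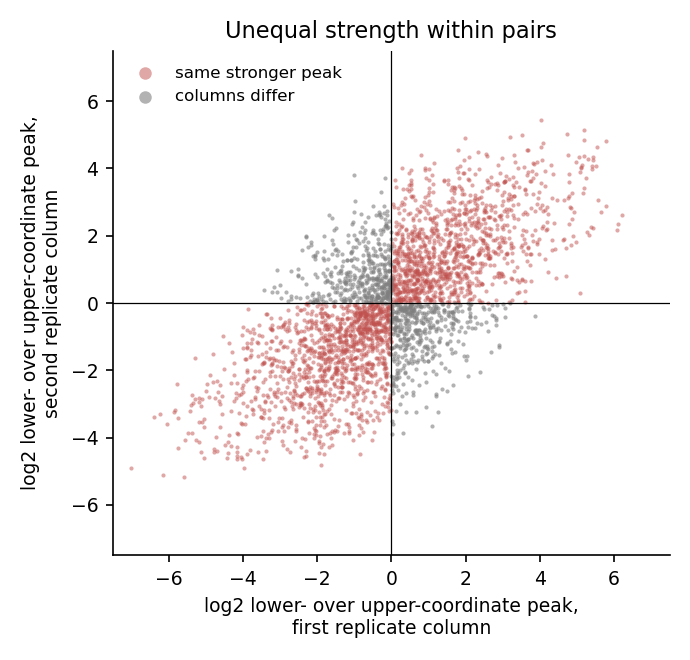
Each point is 1 of 3196 pairs, placed by the log2 ratio of −log10 p, lower- over upper-coordinate peak, in the first (x) and second (y) replicate column. Red points, 2362 pairs, have the same stronger peak in both columns, and grey points fall in the other quadrants.

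The most unequal pair was found on chromosome 9 at Cilk1, a kinase gene of cilium formation, and Fbxo9, an F-box protein gene. The peak classed as inside Cilk1, from 78112538 to 78114167, had its summit in a promoter window of that gene. It had 1312 and 1429 in the columns, and its neighbour 3349 bp away, at the outer ends of both genes, had 10.2 and 47.7. Their log2 ratio in the joint value was 5.56. At Ethe1, a mitochondrial sulfur metabolism gene on chromosome 7, the peaks had 709 and 921 against 9.91 and 26.7. At an end of Ntng2, which encodes netrin-G2 of axon guidance, the columns were 911 and 1094 for the strong peak and 17.1 and 55.0 for the weak one, 1604 bp away. These pairs were chosen for their unequal joint values, which sum both columns.

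Most of the 10 closest pairs had a peak at a gene end, where 46.0% of all peaks within 1 kb of another stood. At Rfx2, a transcription factor gene of ciliated cells on chromosome 17, the summits stood 532 bp apart. The columns had 15.0 and 21.7 for the weaker peak and 57.9 and 65.8 for the other. At the kinesin gene Kif13a the distance was 627 bp, with 35.1 and 17.98 against 184 and 188. At Tbr1, a transcription factor gene of deep cortical layers, it was 687 bp, and here the columns disagreed on the stronger peak, with 33.6 and 133 for one and 36.6 and 21.7 for the other. At Cenpb, a centromere protein gene, summits 710 bp apart belonged to a weak peak (19.8 and 18.3) and a strong one (275 and 378). Of the 10 closest pairs, one inside Rabgap1l and one outside protein-coding genes on chromosome 5, with the nearest end of such a gene 239142 bp away, had no peak at a gene end, and the other 8 had at least 1.

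Strong pairs were also found. Besides the pair at Ube2cbp and Dop1a, one at Mmp17, a matrix metalloproteinase gene on chromosome 5, had 500.01 and 663 in the columns at its end peak and 459.7 and 467 at the other, with the summits 2323 bp apart. At Ago2, the Argonaute gene of RNA interference on chromosome 15, the summits stood 1580 bp apart, with 344 and 383 at the end peak and 112 and 583 at the other. The strongest close peak of all (1533 and 1849) was at a gene end on chromosome 3, from 144719280 to 144721169, with a neighbour 3138 bp away.

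The longest run held 8 peaks in 18371 bp of intergenic sequence on chromosome 10, from 74920394 to 74939904. The nearest protein-coding gene end, that of the radial spoke gene Rsph14, was 18011 bp away. Along the run the joint strengths were 750.1, 349, 267, 58.6, 47.4, 170.5, 291 and 52.5. The first 3 peaks and the seventh were above the median of close peaks (170.2), the sixth was at it, and the other 3 were below. The first peak had 379.8 and 370.3 in the columns, and the fifth 12.2 and 35.2.

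Of the 5 runs of 6 peaks, 2 were on chromosome 10. One, from 127662286 to 127679155, reached from Nab2, which encodes a repressor of early growth response factors, to Nemp1, a nuclear envelope protein gene. Its strongest peak (159 and 807) was at a non-coding gene. The other, from 80288159 to 80303925, crossed Dazap1, an RNA-binding protein gene, the ribosomal gene Rps15 and Apc2, a microtubule regulator of neurons. Here 4 of the 6 peaks were at gene ends, and the strongest had 473 and 502. On chromosome 2, from 73265868 to 73286393, a run at Sp9, a transcription factor gene of interneurons, and Cir1 had 349 and 748 at its strongest peak, outside both genes, and 97.8 and 72.3 at the peak inside Sp9.

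The run of 6 on chromosome 5, from 36942123 to 36959567, was at Ppp2r2c, a phosphatase subunit gene, with 117 and 426 at its strongest peak. Of its 6 peaks 4 were inside the gene, 1 at its end and 1 outside, and the joint strengths were 54.8, 543, 415, 78.3, 171 and 288. Among runs of 5, the one inside the actin-bundling gene Espn on chromosome 4 (152130536 to 152141473) had 454 and 604 at its strongest peak and joint strengths from 189 to 304 at the others.

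**Figure D5:**
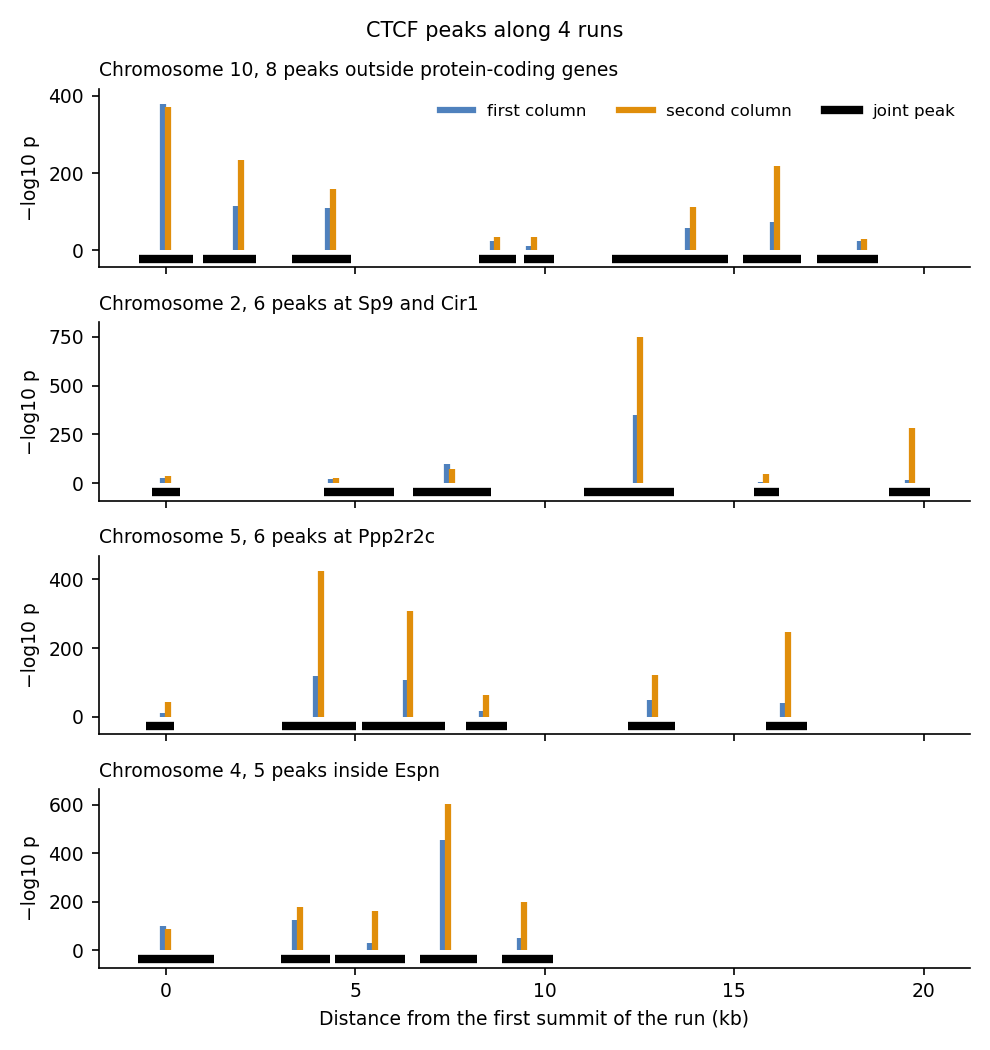
Peak −log10 p in the first (blue) and second (orange) replicate column against distance in kb from the first summit, for runs of 8, 6, 6 and 5 peaks; black bars are the joint peaks. The run at Ppp2r2c has its strongest peak (117 and 426) second, and the run at Sp9 has 1 peak (349 and 748) far above the rest.

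Close peaks touched 2949 of 20558 protein-coding genes (14.3%), counting peaks inside the gene or within 1 kb of it, and 2034 genes (9.89%) had at least 2. The latter had a median length of 44412 bp, against 17578 bp for all genes. A close peak was found at 8.96% of genes under 10 kb and at 35.3% of genes over 300 kb. Per 100 kb of gene the number of close peaks inside went the other way, from 2.14 to 0.17, with overlapping genes counted separately.

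The 10 genes with the most close peaks are all longer than 100 kb. Gse1 had 13 close peaks of 28, Camta1, a calmodulin-binding transcription activator gene, 13 of 27, and Agap1, a regulator of Arf GTPases, 13 of 19. Next came Rbfox3, the splicing factor gene known as NeuN, with 9 of 16, and Trio, a guanine nucleotide exchange factor gene, with 9 of 14. Kalrn, a relative of Trio, had 7 of 18, the neuron navigator gene Nav2 8 of 19 and the homeodomain factor gene Pknox2 8 of 11. The kinase scaffold gene Ksr2 and the gene 2900026A02Rik had 7 of 12 each.

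In Gse1 the close peaks included a run of 5 on chromosome 8 (120315278 to 120328001), whose second peak had 473 and 412 in the columns and whose next but one had 24.4 and 22.6. The strongest close peak of Camta1 had 369 and 418, and its neighbour 2084 bp away, also strong, 99.0 and 307. In the cluster of 3 in Camta1, a peak with 106 and 312 stood 1348 bp from a peak with 11.4 and 24.6. In Agap1 the strongest had 266 and 255, and its neighbour 2186 bp away 10.5 and 30.5. Rbfox3 held no cluster, only peaks of pairs, of which the strongest had 178 and 564 and its neighbour 1276 bp away 17.1 and 26.7. In each of these 4 genes at least 1 run held both a strong and a weak peak.

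Lists of genes of known function were read against those 14.3% and 9.89%, and against the 53.4% of all protein-coding genes with a peak of any kind. Of 66 semaphorin, plexin, ephrin, netrin and Slit family genes 25 (37.9%) had a close peak and 20 (30.3%) had at least 2, while 62 (93.9%) had a peak of any kind. These shares were above those of all genes. Their median length was 86956 bp. All genes of 30 to 100 kb had a close peak at 16.8%, those of 100 to 300 kb at 26.8% and those over 300 kb at 35.3%. The part of length in these shares was not tested. Ephb2, an ephrin receptor gene on chromosome 4, had 6 close peaks of 8, in 3 pairs, with 226 and 415 at the strongest. Nrp2, a semaphorin receptor gene, had 6 of 7 (67.4 and 341 at the strongest), Ntng2 5 of 7, and Unc5b, a netrin receptor gene, 4 of 4 (179 and 446).

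Synaptic adhesion and scaffold genes had a close peak at 22 of 61 (36.1%), with 20 (32.8%) having at least 2. Their median length was 312910 bp, and 58 of the 61 (95.1%) had a peak of any kind. Among all genes over 300 kb the shares were close to these, 35.3% with a close peak and 32.8% with at least 2. Shank2, a postsynaptic scaffold gene, had 6 close peaks of 19. A run of 4 there, on chromosome 7 from 144071845 to 144082344, had joint strengths of 259, 389.8, 254 and 359, which are of like size. The cell adhesion gene Ntm had 5 of 14, with 50.9 and 298 at the strongest, the scaffold gene Dlgap4 4 of 7 (375 and 287), and the neurexin family gene Cntnap2 4 of 11 (33.7 and 326).

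Imprinted genes, expressed from 1 parental copy, had a close peak at 15 of 45 (33.3%), and 14 (31.1%) had at least 2, with a peak of any kind at 66.7%. Their median length was 36304 bp, and the part of length was not tested. At Gnas, which encodes the stimulatory G protein alpha subunit, 7 of 8 peaks were close, in a cluster of 3 and 2 pairs. One pair on chromosome 2, from 174310476 to 174312745, had 58.8 and 422, and 50.6 and 266. The other, from 174327157 to 174330089, was weaker, with 31.8 and 25.2, and 53.0 and 32.5. H13 had 5 of 6, with 348 and 338 at its start. Commd1, a copper metabolism gene, had 4 of 5, none above 139.7 in joint strength, and Usp29, a deubiquitinase gene, 3 of 4 (238 and 378 at the strongest).

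Among activity-regulated genes, switched on by neuronal firing, 12 of 40 (30.0%) had a close peak and 5 (12.5%) had at least 2, with a peak of any kind at 80.0%. Their median length was 7571.5 bp, and the part of length was not tested. Bdnf had 3 close peaks of 4, a cluster on chromosome 2 from 109691357 to 109695418. Its peaks had 21.6 and 22.6, 42.0 and 54.8, and 72.3 and 271 in the columns, so both columns ranked the 3 alike. Klf4, a zinc finger transcription factor gene, had a pair with 15.8 and 139, and 250.04 and 228. The nuclear receptor gene Nr4a2 had 13.4 and 20.0, and 107 and 90.7. At Ccn1, a matrix signalling gene, the columns disagreed on the stronger peak, with 24.2 and 76.3 for one and 104 and 74.6 for the other.

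Markers of excitatory neurons had a close peak at 11 of 30 (36.7%), with a median length of 56072 bp and a peak of any kind at 76.7%. The glutamate receptor gene Grin1 had a pair of unequal peaks (22.3 and 23.8, 109.9 and 505). Camk2a, a synaptic kinase gene, had 123 and 394, and 33.9 and 256. Markers of inhibitory neurons had a close peak at 4 of 24 (16.7%), with a median length of 10214 bp and a peak of any kind at 41.7%. The part of gene length in these shares was not tested. The calcium-binding protein gene Pvalb had 53.6 and 31.4, and 68.8 and 109.9, and the GABA transporter gene Slc32a1 had 91.0 and 56.9, and 53.6 and 115.7. Gad1, a GABA synthesis gene, and Sp9 had 1 close peak each, with partners beyond 1 kb of the gene.

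Genes of other cells that a cortical culture can hold also had close peaks. Markers of astrocytes had them at 4 of 16, with a median length of 9830 bp and a peak of any kind at 10. Markers of oligodendrocytes had them at 5 of 15, with a median length of 18950 bp and a peak of any kind at 13. Of 15 microglial markers, of a median length of 6668 bp, 0 had a close peak and 4 had a peak of any kind. Of all genes 14.3% had a close peak, with 8.96% under 10 kb and 13.4% at 10 to 30 kb. The part of length in these counts was not tested. At the oligodendrocyte precursor gene Pdgfra all 3 peaks formed a cluster, with 446 and 482 at the strongest, and at Cspg4, another precursor marker, all 3 did so too (179 and 305). The glutamate transporter gene Slc1a2 of astrocytes had a pair with 33.7 and 55.9, and 25.7 and 122. A CTCF peak at a marker gene does not show that the gene was expressed, so these counts say nothing on which cells were present.

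Of all genes under 10 kb, 8.96% had a close peak, of those of 10 to 30 kb 13.4%, and of those of 30 to 100 kb 16.8%. Housekeeping genes, of a median length of 5176 bp, had one at 8 of 37 (21.6%), with all 3 peaks close at Eno1, Ldha and Aldoa, which encode enzymes of glycolysis. Ribosomal protein genes, of a median length of 3206.5 bp, had 13 of 80 (16.25%), among them Rpl36 with a strong peak (604 and 652) beside a weak one (28.5 and 29.8). Genes of CTCF, cohesin and topoisomerases, of a median length of 39157 bp, had 3 of 27 (11.1%). These were Tdp1, which repairs topoisomerase lesions, the cohesin subunit gene Smc3 and Zfp143, a zinc finger factor of promoters. Zfp genes, of a median length of 17984 bp, had 51 of 388 (13.1%), led by Zfp469 with 6 close peaks of 9. The part of length in these shares was not tested. Histone genes had 3 of 67, olfactory receptors 1 of 1103 (Olfr90) and vomeronasal receptors 0 of 349. Of the olfactory receptors 10 and of the vomeronasal receptors 2 had a peak of any kind.

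At loci known for grouped CTCF sites the picture was mixed. On chromosome 7, within 10 kb of the imprinted genes H19 and Igf2, 6 of 7 peaks were close, in 3 pairs and no cluster. Their columns had 12.2 and 22.7 beside 68.0 and 193, then 35.1 and 20.8 beside 25.5 and 18.7, and 54.2 and 236 beside 26.0 and 158. With 10 kb on either side, the Hoxd cluster (74668225 to 74765142 on chromosome 2) had 4 close peaks of 8. A strong pair (74660930 to 74664518), with 118 and 261, and 85.4 and 394, lay outside the cluster in that flank. The other pair, at Hoxd10 (74691395 to 74694520), was weak, with 23.4 and 26.7, and 13.8 and 27.0. Hoxa, Hoxb and Hoxc, with the same flanks, had 0 of 7, 0 of 9 and 0 of 3, so their peaks stood over 5 kb apart.

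The protocadherin cluster on chromosome 18, with 10 kb on either side, had 6 close peaks of 28, again in pairs. Through these 6 shared peaks 19 of 57 clustered protocadherin genes had a close peak, so the genes are not separate counts. The strongest of the pairs, from 37806005 to 37809297, had 104 and 87.9, and 91.5 and 144. Within 10 kb of Fos, an immediate early gene on chromosome 12, all 3 peaks were close. The columns had 28.3 and 35.9, 32.7 and 28.4, and 15.0 and 63.7, and the last peak belonged to a run of 4. With the same flanks, Egr1, Npas4, Ctcf and Top2b had 0 close peaks of 1, 2, 4 and 3, and Arc and Rad21 had no peak.

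Close peaks were found on all of chromosomes 1 to 19, in unequal shares. Chromosome 11 had the highest, 763 of 2531 peaks (30.15%, exact 95% interval 28.4 to 32.0), with 68 clusters and 6.42 close peaks per Mb, and chromosome 7 followed with 29.6%. Chromosome 16 had the lowest, 226 of 1088 (20.8%, 18.4 to 23.3), with 17 clusters and 2.39 per Mb. Chromosome 11 also had more peaks per Mb than chromosome 16, 21.3 against 11.5, and more protein-coding genes, 13.5 against 7.19. Their part in the difference was not tested.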

How the data were processed

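The authors deposited 1 joint peak table of 20 columns in the layout of the IDR program, for 2 CTCF immunoprecipitations. It gives, per the file's columns, the −log10 p of each replicate's peak, their sum, the −log10 of the IDR (lowest 1.30, the threshold of 0.05) and a score, not used here, which the authors deposited. Per the submitters' processing notes, FastQC, Trimmomatic, BWA, SAMtools and MACS2 were used, with the builds mm10 and GRCm38.p6. The MACS2 threshold and the labelled replicate behind each column were not given in the sources used here. A −log10 p depends on depth and is not an amount of bound CTCF, so strengths were compared between peaks within a column or the sum.

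Genes came from a RefSeq table of GRCm38.p6 (20558 protein-coding on chromosomes 1 to 19; 333 genes on scaffolds left out). Summits were classed in the order gene end, inside a protein-coding gene, other gene, intergenic. Gene ends are the outer bounds of a gene, so a summit at a start farther in was classed as inside. Runs, medians, shares and exact 95% intervals were computed with Python 3.11.15, numpy 2.4.6, pandas 2.3.3 and scipy 1.17.1, and tested on simulated data. Members and gene lists were chosen with earlier results of these data known. Named were the 10 leading runs and genes by 5 rules (most peaks, strongest weaker peak, closest summits, largest ratio, most close peaks per gene) and up to 4 genes per list; the text gives part of these, and fixed loci. The strongest close peak was added after its value was seen. Some genes named by these rules are not reported.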

Additional observations from a re-analysis of the deposited data

How the results depend on the processing

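With peaks placed at their midpoint or at either column's summit, all 9 results stayed within set bands. These were exact intervals for shares, an interval of the median for the log2 column ratio, and 1.5 times for counts. For strength, width and pair ratio the band was the reported value plus or minus the standard deviation between the values of both columns. With an IDR of 0.01 the share of close peaks was 21.3%, with 346 clusters, a strength difference (close minus other) of 8.35, a log2 ratio within pairs of 0.97, the same stronger peak in 71.25% of pairs and 1248 genes with at least 2 close peaks. Above the median strength these were 14.4%, 103, 28.8, 0.62, 66.05% and 520, and the difference at gene ends turned to −0.757 points. With a limit of 2000 bp the share was 6.67%, with 33 clusters and 634 genes, strength and width turned to −36.5 and −27, and the gene end difference was 4.25 points and that of the log2 column ratio −0.24. With 10000 bp the share was 44.5%, with 1828 clusters, 3070 genes and a strength difference of 13.1. The strength difference ran from −2.14 (second column alone) to 4.26 (first alone), the pair ratio from 1.22 to 1.30, and against other peaks within 50 kb the strength difference was −2.91. Gene end windows of 500 and 5000 bp gave −0.256 and 14.5 points. The causes were not tested. Of 73 alternatives 44 stayed, 23 moved and 6 changed sign. No paired analysis was possible because the peak list has 1 condition and no input columns. Unknown depth limits comparison between columns.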

Other observations

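The 5 stretches of 1 Mb with the most close peaks were picked after their values were seen. Chromosome 7 from 19 to 20 Mb held 40 close peaks of 75, and chromosome 10 held 39 of 70 from 80 to 81 Mb, where the run at Dazap1, Rps15 and Apc2 lies. Chromosome 10 from 127 to 128 Mb held 35 of 62, around the run at Nab2 and Nemp1, and chromosome 4 from 152 to 153 Mb held 32 of 57, around the run inside Espn. Chromosome 17 from 35 to 36 Mb held 29 of 64. On chromosome X, outside the rule, 124 of 729 peaks (17.01%) had a summit within 5 kb.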
